A study of Rattus norvegicus with 48 samples.

Results

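The corticotropin-releasing hormone (CRH) system and the oxytocin and vasopressin receptors were described in the brains of rats that differed in ancestral exposure to vinclozolin and in adolescent stress. Of 8 listed genes, 6 were measured, each on 1 probe set whose annotation names that gene alone: Crh, Crhbp, Ucn, Oxtr, Avpr1a and Avpr1b, among 14324 genes named on the array. Crhr1 and Crhr2, the receptors of CRH and the urocortins, were not analysed here. All animals were male Sprague-Dawley rats, taken as the F3 generation from litters of untreated F2 parents. Rats of the vinclozolin lineage (Vin) descend from dams injected with 100 mg/kg/day of vinclozolin, an anti-androgenic fungicide, on embryonic days 8 to 14, and rats of the control lineage (Con) from dams that received the vehicle DMSO on the same days. A Vin and a Con rat were housed together as a dyad. Stressed dyads (St) were restrained for 6 h a day on 21 days, from postnatal day 23 to 43, and non-stressed dyads (NSt) were not. At 120 days of age, 2 mm punches were taken from the basolateral amygdala (BLA), the primary and secondary motor cortex (CRTX), and CA1 and CA3 of the hippocampus. Each area has 4 groups (St-Vin, St-Con, NSt-Vin and NSt-Con) of 3 arrays, and an array carries the combined RNA of 4 rats, 1 from each of 4 dyads (a dyad group), so it stands for no single animal. The same dyad groups supplied all areas.

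CRH is the peptide that starts the hormonal stress response and also acts as a transmitter in the amygdala, cortex and hippocampus. Urocortin (Ucn) is a related peptide that acts through the same receptors, and CRH-binding protein (Crhbp) binds both peptides outside the cell and limits how much reaches the receptors. Oxytocin and vasopressin, which shape social recognition, aggression and anxiety, act on Oxtr, on Avpr1a, the main vasopressin receptor of the brain, and on Avpr1b, which is known from the pituitary and from hippocampal CA2. CRH receptors signal mainly through the stimulatory G protein and cyclic AMP, while Oxtr, Avpr1a and Avpr1b signal mainly through Gq and phospholipase C.

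The upstream sequences of Ucn, Crhbp and Avpr1a, the genes with the differences described most fully here, are shown as the 250 bases before the transcription start in RefSeq's annotation of assembly GRCr8. Capitals mark matches on either strand to the cyclic AMP response element TGACGTCA, to its shorter core TGACG or to the TATA core TATAAA. The glucocorticoid receptor core AGAACA was searched as well.
Ucn (chr6:30957836-30958085, plus strand): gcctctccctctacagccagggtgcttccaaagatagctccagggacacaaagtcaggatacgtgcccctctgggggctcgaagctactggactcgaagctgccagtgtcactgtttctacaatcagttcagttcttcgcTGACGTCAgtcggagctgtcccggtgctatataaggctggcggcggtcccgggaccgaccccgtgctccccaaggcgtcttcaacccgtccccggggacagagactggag
Crhbp (chr2:28439447-28439696, minus strand): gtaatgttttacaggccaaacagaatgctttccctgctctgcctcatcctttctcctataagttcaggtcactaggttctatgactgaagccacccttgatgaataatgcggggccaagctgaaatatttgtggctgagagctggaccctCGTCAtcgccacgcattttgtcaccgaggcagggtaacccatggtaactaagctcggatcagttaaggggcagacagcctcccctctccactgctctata
Avpr1a (chr7:59999493-59999742, plus strand): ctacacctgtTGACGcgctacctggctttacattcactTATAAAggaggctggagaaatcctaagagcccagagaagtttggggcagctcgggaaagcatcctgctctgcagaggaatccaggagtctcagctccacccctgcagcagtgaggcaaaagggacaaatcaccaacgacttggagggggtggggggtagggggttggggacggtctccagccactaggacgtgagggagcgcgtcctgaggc
The Ucn sequence holds the complete element TGACGTCA, which is present in 1.59% of 33469 upstream windows of the same length, and the shorter core overlaps it on both strands. Crhbp and Avpr1a each hold 1 shorter core, which 18.2% of all windows hold, and Avpr1a also holds a TATA core, present in 12.9%. AGAACA, present in 17.5% of windows, is in none of these 3 sequences. Windows of Oxtr and Avpr1b were searched too: Oxtr holds 1 shorter core and Avpr1b no match. A match describes letters only.

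Of the 48 arrays, 46 were used. The second CRTX NSt-Vin array and the third CA1 St-Con array equal the mean of the other arrays of their group on all 27342 probe sets (largest deviation 0.005, tolerance 0.0051), so those groups have n = 2. Values are log2 signals. Array medians averaged 7.10 in BLA, 6.78 in CRTX, 7.13 in CA1 and 7.37 in CA3, so a level in one area cannot be set directly against another. Areas were therefore compared on 4 scales: as deposited, with each array centred on its median, after quantile normalization, and with each array centred on the median of 1270 olfactory and vomeronasal receptor probe sets, a scale chosen after seeing the data. BLA and CRTX RNA was prepared at 1 time and CA1 and CA3 RNA at another, so hippocampus against the other areas and RNA preparation cannot be told apart. Areas were also scanned on different days, apart from BLA and part of CRTX. Marker lists followed the labels in part. Relative to the array median, the mean of the basolateral amygdala list was highest in BLA (1.07) and that of the cortical list highest in CRTX (1.31), but the striatal list also stood at 0.98 in BLA, against at most 0.02 in the other areas, and the CA1 list averaged 1.06 in CA1 and 1.13 in CA3. Choroid plexus genes stood over 0.6 above their area mean in 5 arrays: BLA St-Vin 3, CRTX NSt-Con 1, CA1 NSt-Con 2, CA1 NSt-Con 3 and CA3 NSt-Con 3.

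The signals of the 6 genes were low. Of their 24 mean levels by gene and area, 22 lay between the 5th and 95th percentiles of the same receptor probe sets, a check made after seeing the values. Those percentiles were 4.99 and 7.85 in BLA, 5.00 and 7.50 in CRTX, 5.22 and 7.88 in CA1, and 5.32 and 8.03 in CA3. Oxtr in CRTX and in CA1 were the exceptions, both above the band. Detection calls were not used here.

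**Figure D1:**
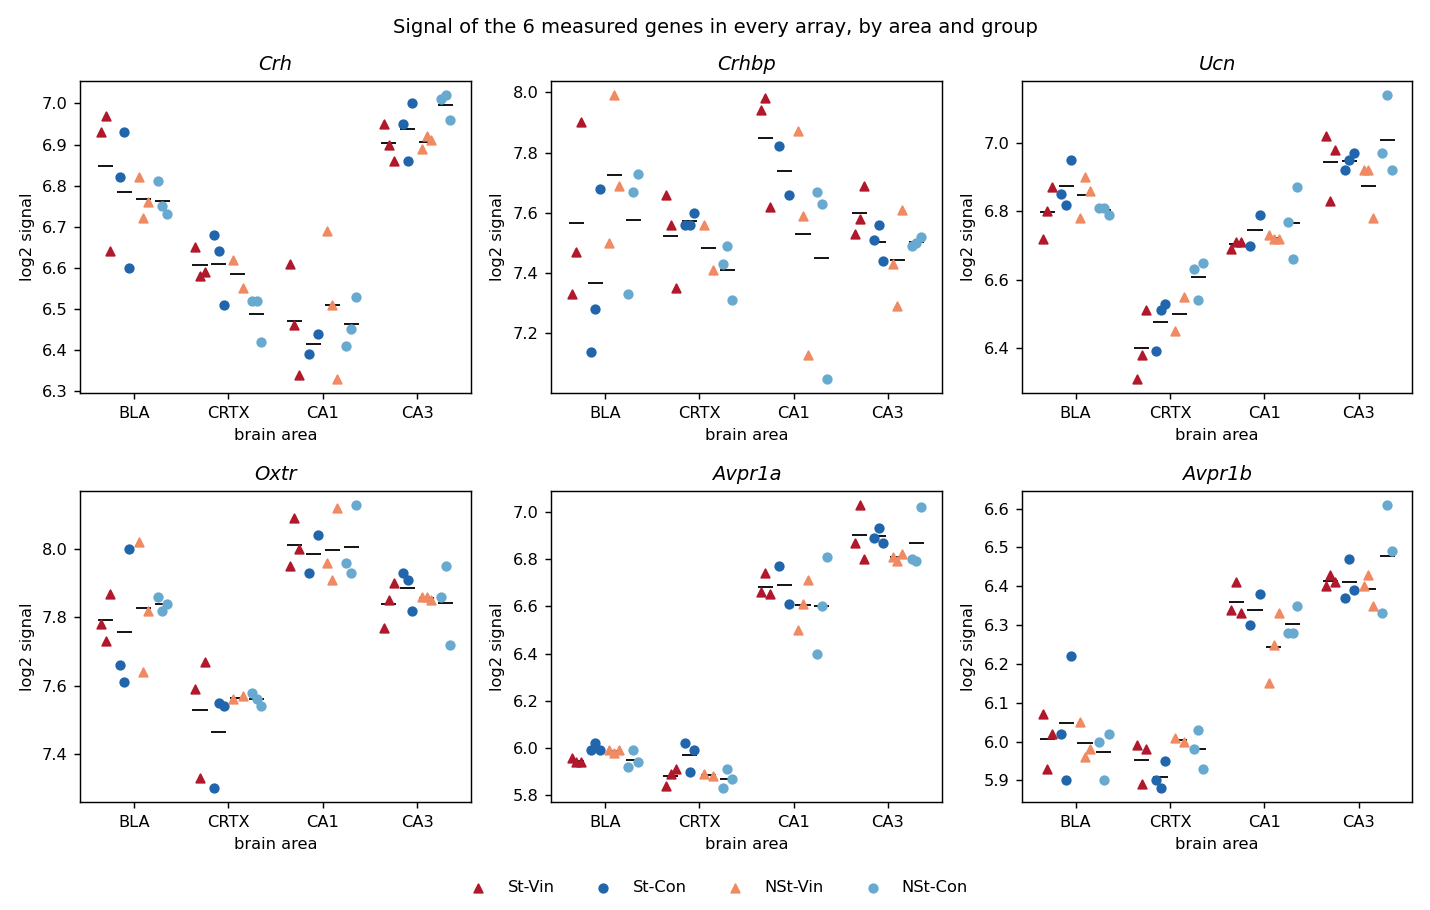
Log2 signal (vertical axis) of the 6 measured genes in each of the 46 arrays, by brain area (horizontal axis) and group; triangles are vinclozolin-lineage pools, circles control-lineage pools, and black lines group means. Avpr1a lies at 6.02 or below in every BLA and CRTX array and at 6.40 or above in every CA1 and CA3 array, while Crhbp spreads over 7.05 to 7.99.

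Signals differed between areas for several of the genes, and most for Avpr1a. Since nearly all lie in the range of receptor genes of the nose, these differences are of probe set signal, and whether they are differences in RNA was not tested. On all 4 scales Crh was lower in CA1 than in each other area, Oxtr was higher in CA1 than in each other area, and Avpr1a was lower in BLA and in CRTX than in CA1 and in CA3. Crhbp did not pass on all 4 scales in any pair of areas. As deposited, limma called 4 of 6 members between BLA and CRTX (79.5% of all probe sets), 5 between BLA and CA1 (76.5%), 4 between BLA and CA3 (87.4%), 5 between CRTX and CA1 (88.7%), 5 between CRTX and CA3 (95.1%) and 5 between CA1 and CA3 (79.6%). With 1 direction and an adjusted p under 0.05 required on all 4 scales, 0 members passed between BLA and CRTX (39.8% of probe sets), 5 between BLA and CA1 (53.7%), 2 between BLA and CA3 (43%), 3 between CRTX and CA1 (29.1%), 1 between CRTX and CA3 (28%) and 2 between CA1 and CA3 (31.6%), which is 13 of 36 differences. These counts are read against large background shares, and only the named directions below are used.

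Among the ligands, Crh had 6.60, 6.79 and 6.97 as its lowest, median and highest log2 signal over 12 BLA arrays, 6.42, 6.58 and 6.68 over 11 CRTX arrays, 6.33, 6.45 and 6.69 over 11 CA1 arrays, and 6.86, 6.94 and 7.02 over 12 CA3 arrays. As deposited the order was therefore CA3, BLA, CRTX and CA1, and the CRTX and CA1 ranges overlap while no CA1 array reached the lowest CA3 array. The difference of BLA from CA1 was 0.33 ± 0.037 (SE, limma adjusted p = 8.6e-10) and lay between 0.33 and 0.40 over the 4 scales. CRTX stood above CA1 by 0.11 ± 0.038 (adjusted p = 0.0103; 0.11 to 0.47 over the scales), and CA1 below CA3 by -0.47 ± 0.037 (adjusted p = 1.21e-13; -0.47 to -0.24). The place of BLA and CRTX relative to CA3 turned with the scale: Crh was -0.15 in BLA minus CA3 as deposited and 0.12 with arrays centred on their median.

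Ucn had 6.72, 6.82 and 6.95 as its lowest, median and highest signal in BLA, 6.31, 6.51 and 6.65 in CRTX, 6.66, 6.72 and 6.87 in CA1, and 6.78, 6.94 and 7.14 in CA3. BLA exceeded CA1 by 0.09 ± 0.033 (adjusted p = 0.0137; 0.09 to 0.16 over the scales), a difference smaller than the range of the arrays within either area. No other pair of areas passed on all 4 scales for Ucn, and CRTX, lowest as deposited, was not below CA1 once arrays were centred on their median (0.11).

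Crhbp, the extracellular binding protein, averaged 7.56 ± 0.260 in BLA (SD, n = 12), 7.50 ± 0.110 in CRTX (n = 11), 7.63 ± 0.300 in CA1 (n = 11) and 7.51 in CA3 (7.29 to 7.69, n = 12). Neighbours in this order differed by less than their spread as deposited. On the other scales CRTX stood above CA3 by 0.45 to 0.58, against -0.01 as deposited, so no order of areas is given for this gene.

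Among the receptors, Oxtr had 7.61, 7.82 and 8.02 as its lowest, median and highest signal in BLA, 7.30, 7.56 and 7.67 in CRTX, 7.91, 7.96 and 8.13 in CA1, and 7.72, 7.86 and 7.95 in CA3. Every CA1 array was above every CRTX array, while CA1 overlapped with BLA and CA3. BLA stood below CA1 by -0.20 ± 0.041 (adjusted p = 3.84e-05; -0.20 to -0.10 over the scales), CRTX below CA1 by -0.49 ± 0.042 (adjusted p = 6.67e-13; -0.49 to -0.14), and CA1 above CA3 by 0.15 ± 0.041 (adjusted p = 0.00126; 0.15 to 0.40).

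Avpr1a had 5.92, 5.99 and 6.02 as its lowest, median and highest signal in BLA, 5.83, 5.89 and 6.02 in CRTX, 6.40, 6.65 and 6.81 in CA1, and 6.79, 6.85 and 7.03 in CA3. The BLA and CRTX arrays did not overlap with the CA1 and CA3 arrays. BLA stood below CA1 by -0.67 ± 0.030 and below CA3 by -0.90 ± 0.029, and CRTX below CA1 by -0.75 ± 0.031 and below CA3 by -0.97 ± 0.030, with a largest adjusted p over the 4 comparisons and 4 scales of 3.69e-13. Over the scales these differences spanned -0.67 to -0.60, -0.90 to -0.63, -0.75 to -0.39 and -0.97 to -0.38. Whether CA1 lay below CA3 depended on the scale (-0.22 as deposited, 0.01 with arrays centred on their median). Avpr1b followed in the same direction against BLA: BLA stood below CA1 by -0.31 ± 0.034 (adjusted p = 3.13e-10; -0.31 to -0.24) and below CA3 by -0.42 ± 0.033 (adjusted p = 2.62e-14; -0.42 to -0.15), with 5.90, 6.01 and 6.22 as the lowest, median and highest BLA arrays against 6.15, 6.33 and 6.41 in CA1 and 6.33, 6.41 and 6.61 in CA3. Avpr1b in CRTX did not differ from CA1 or CA3 on all 4 scales.

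The probe sets whose signal followed these genes most closely over the 46 arrays included genes with known roles outside the brain. For Avpr1a they were Tas2r143, a bitter taste receptor (Pearson r = 0.973), St18 (0.971) and Vom1r34, a vomeronasal receptor (0.970). For Avpr1b they were Tph1, Ifna5 and P3h1 (r = 0.956, 0.956 and 0.955), for Oxtr Vom1r22, Pygo2 and Lmbr1l (0.904, 0.899 and 0.890), for Ucn Plekhf2, Tns4 and Dnase1 (0.933, 0.921 and 0.919), for Crh Zfp280b, Lsm2 and Pakap (0.903, 0.885 and 0.879), and for Crhbp Klf6, Nol4 and Doc2a (0.700, 0.698 and 0.696). These arrays share area, RNA preparation and array median. After subtracting each area's mean, the closest were Doc2a, Fezf2 and Fam81a for Crhbp (0.868, 0.829 and 0.825) and Il1r2, Rnf225 and Cxcr3 for Avpr1b (0.784, 0.760 and 0.754). The closest for Oxtr were Ly6g6e, Rem1 and Ebi3 (0.723, 0.707 and 0.693), for Crh Id4, Phlda1 and Ccm2 (0.699, 0.679 and 0.654), for Ucn Smyd4, Asb10 and Mical3 (0.686, 0.642 and 0.635), and for Avpr1a Or2b2, Hdc and Epha1 (0.632, 0.6 and 0.597). Doc2a, a calcium sensor of synaptic vesicle release, and Fezf2, a transcription factor of deep-layer cortical projection neurons, are both neuronal.

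Neither the lineage nor the stress changed a member past the threshold. In each of 7 lineage and stress comparisons, run per area and on the average of the areas, limma called 0 of 6 members, and the smallest of the 210 adjusted p-values was 0.292. At an unadjusted p under 0.05, 2 of the 210 passed: Ucn in the average stress difference in CRTX, where 14.1% of all probe sets did, and Crhbp in the lineage difference of stressed rats in the mean of the areas, where 4.4% did. Among all probe sets the same fits called 0% in every comparison but 3: the stress difference in Con in CRTX (0.636%), the average stress difference in CRTX (0.00731%) and the stress difference in Vin in CA1 (0.505%).

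For the lineage, Crhbp and Ucn had the most frequent directions. Within dyad groups, where a Vin and a Con pool hold cage mates, the Crhbp signal was higher in the Vin pool in 16 of 22 pairs over the areas, lower in 5 and equal in 1. The 22 pairs of a gene come from 6 dyad groups, each counted in up to 4 areas, so they are not independent. How common such counts are among all probe sets was not computed. In BLA the Vin pools had 7.50, 7.99 and 7.69 in dyad groups 1 to 3 and 7.33, 7.47 and 7.90 in dyad groups 4 to 6, against 7.33, 7.67 and 7.73 and then 7.14, 7.28 and 7.68 in the Con pools. The Vin pool was higher in 5 of these 6 dyad groups, by 0.17 to 0.32, and lower by 0.04 in the third. The groups themselves overlapped, and the dyad groups differed by more than the lineages did. The lineage difference averaged over stress was 0.18 ± 0.127 in BLA (limma adjusted p = 0.997), and 0.18 ± 0.049 in the paired fit with the replicate block (unadjusted p = 0.00516, adjusted p = 0.427). For the paired fits, here and below, the share of all probe sets under an unadjusted p of 0.05 is not at hand.

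In CA1 the Crhbp signal was 7.87, 7.59 and 7.13 in NSt-Vin pools and 7.94, 7.98 and 7.62 in St-Vin pools, against 7.67, 7.63 and 7.05 in NSt-Con pools and 7.82 and 7.66 in St-Con pools. The Vin pool was higher in 4 of 5 dyad groups (paired fit 0.15 ± 0.054, adjusted p = 0.365). Of these, the pairs of dyad groups 4 and 5 were scanned on different days. In CA3 the Vin pool was higher in 4 of 6, and in CRTX in 3 of 5, with 1 pair equal and dyad group 6 lower by 0.25. Averaged over the 4 areas, the Vin pool was higher in 4 of 4 dyad groups, by 0.06 to 0.13. Dyad groups 2 and 6 have no pair in this mean, because 1 array of each was left out. Within areas, Crhbp differences ran from -0.21 to 0.32 in dyad group 2 and from -0.25 to 0.25 in dyad group 6. The pairs scanned on different days enter the mean. In the mean of the areas the stressed lineage difference was 0.12 ± 0.053 (unadjusted p = 0.0419, adjusted p = 0.999), and the paired average was 0.10 ± 0.027 (unadjusted p = 0.00557, adjusted p = 0.436). None of these values passed the adjusted threshold.

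Ucn went the other way within dyads: the Vin pool was lower in 17 of 22 pairs. In CRTX it was lower in 5 of 5, with 6.45 and 6.55 in NSt-Vin pools and 6.31, 6.38 and 6.51 in St-Vin pools, against 6.63 and 6.65 in the NSt-Con pools of the same dyads and 6.39, 6.51 and 6.53 in St-Con pools. The differences ran from -0.18 to -0.02, and the groups overlapped with and without stress. The non-stressed pair with 6.55 against 6.65, of dyad group 3, was scanned on different days. The average lineage difference in CRTX was -0.09 ± 0.050 (adjusted p = 0.875), or -0.11 ± 0.046 with the replicate block (unadjusted p = 0.0418, adjusted p = 0.893). In the mean of the areas, again without pairs of dyad groups 2 and 6, Ucn was lower in Vin in 4 of 4 dyad groups, by 0.03 to 0.09 (paired fit -0.07 ± 0.027, adjusted p = 0.56).

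**Figure D2:**
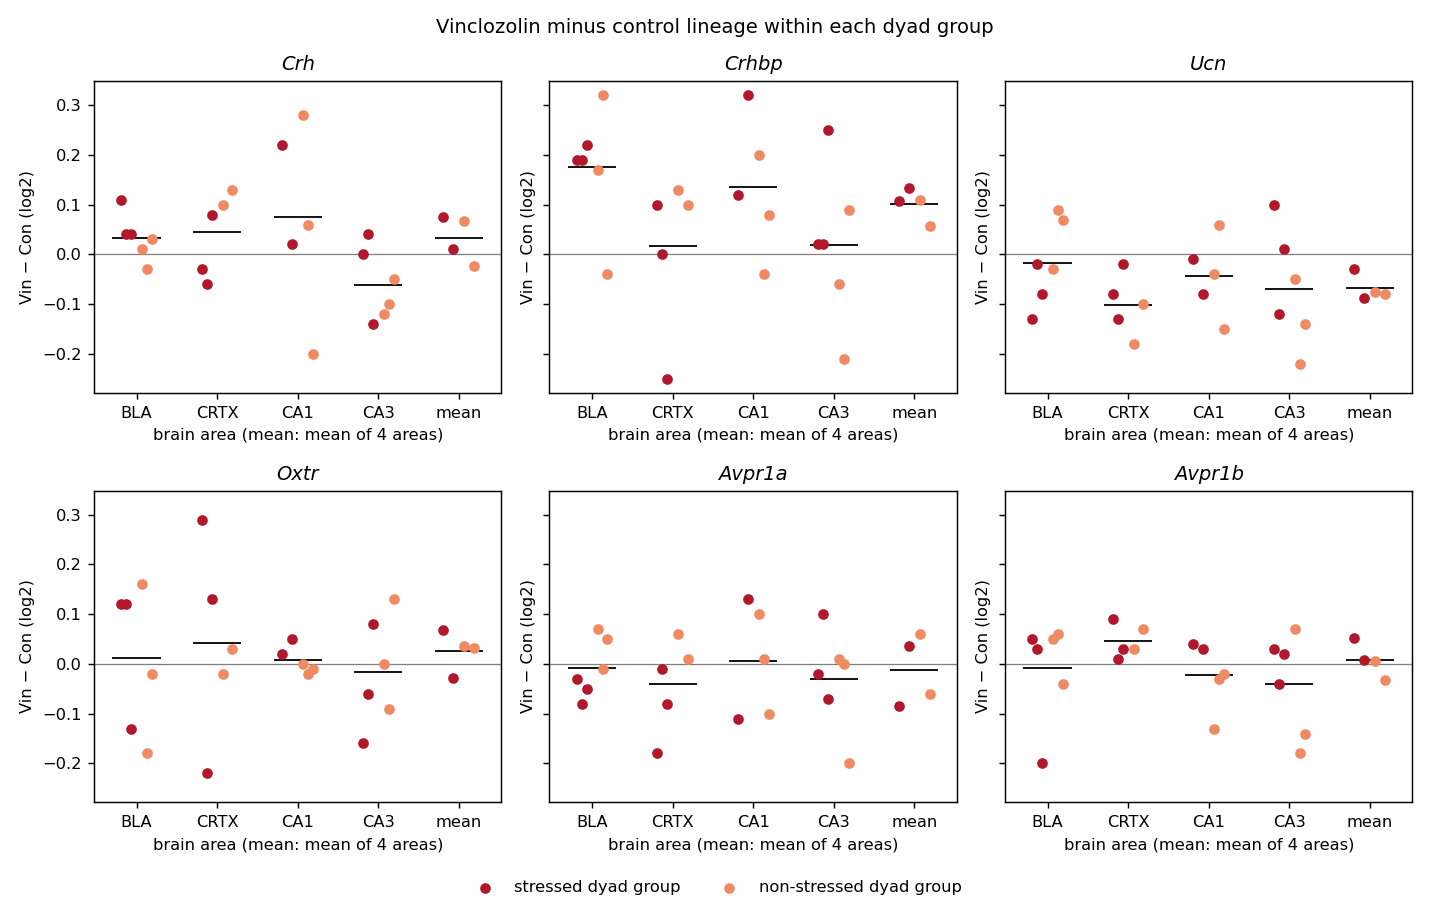
Vin minus Con log2 signal (vertical axis) within each dyad group, by area and in the mean of the 4 areas (horizontal axis), with stressed dyad groups left and non-stressed dyad groups right; lines are means over dyad groups. Crhbp lies above 0 in 16 of 22 area values and Ucn below 0 in 17 of 22, with no member past the adjusted threshold.

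The other members showed no common lineage direction over the areas. Crh was higher in the Vin pool in 13 of 22 pairs, Oxtr in 10, Avpr1a in 9 and Avpr1b in 14. Crh was higher in Vin in 5 of 6 dyad groups in BLA and in 1 of 6 in CA3 (with 1 equal). Avpr1b was higher in Vin in 5 of 5 in CRTX, by 0.01 to 0.09. A limma F test of whether the average lineage difference is the same in every area called 0 members (adjusted p = 1.00 for each of the 6) and 0 of all probe sets, with 1164 probe sets below an unadjusted p of 0.05.

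In 3 of the 48 lineage comparisons within areas the groups did not overlap. In BLA of stressed rats Avpr1a was 5.96, 5.94 and 5.94 in St-Vin, against 5.99, 6.02 and 5.99 in St-Con (-0.05 ± 0.048, adjusted p = 1), where 6.4% of all probe sets do not overlap. Without stress the BLA order was not the same, with 5.99, 5.98 and 5.99 in NSt-Vin and 5.92, 5.99 and 5.94 in NSt-Con. In CRTX without stress Crh was 6.62 and 6.55 in NSt-Vin, against 6.52, 6.52 and 6.42 in NSt-Con (0.10 ± 0.066, adjusted p = 0.919), where 20.3% do not overlap. The NSt-Vin array at 6.55 was scanned on another day than the NSt-Con arrays. In CA3 without stress Crh was 6.89, 6.92 and 6.91 in NSt-Vin, against 7.01, 7.02 and 6.96 in NSt-Con (-0.09 ± 0.048, adjusted p = 0.845), where 8.47% do not overlap. In the other lineage comparisons 0 members separated, against 5.35% of probe sets in non-stressed BLA, 9.16% in stressed CRTX, 6.11% and 22.9% in non-stressed and stressed CA1, and 9.31% in stressed CA3. The Crh difference thus had opposite signs in CRTX and CA3, and neither passed the test.

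For stress, the groups did not overlap in 6 of 48 comparisons, and those with the smallest adjusted p among them were in CRTX. There Ucn was 6.39, 6.51 and 6.53 in St-Con, against 6.63, 6.54 and 6.65 in NSt-Con (-0.13 ± 0.066, adjusted p = 0.323), and Crhbp was 7.56, 7.56 and 7.60 in St-Con, against 7.43, 7.49 and 7.31 in NSt-Con (0.16 ± 0.079, adjusted p = 0.30). In this comparison 24.3% of all probe sets do not overlap. Crh tended to the same side as Crhbp without separating: 6.68, 6.64 and 6.51 in St-Con, against 6.52, 6.52 and 6.42 in NSt-Con (0.12 ± 0.059, adjusted p = 0.292). Averaged over lineage, Ucn was lower in stressed CRTX by -0.12 ± 0.050 (unadjusted p = 0.0387, adjusted p = 0.322), and with scan day as a block by -0.19 (adjusted p = 0.909). Over its 18 alternatives the adjusted p ranged from 0.168 to 0.909. In CRTX all NSt-Con arrays were scanned on day 1 and all stressed arrays on day 2, and only 1 NSt-Vin array shares day 2 with the stressed groups. Within scan day 2 the Ucn stress difference in Vin was -0.15, a value that rests on that 1 NSt-Vin array (6.55) and is given without a test. With scan day as a block the Crhbp difference in Con was 0.31 (adjusted p = 0.693). The choroid plexus list ranged from 5.97 to 6.10 in CRTX St-Con and from 6.59 to 8.68 in NSt-Con, and its part in these differences was not tested. Without the choroid-rich array the average Ucn difference was -0.11 ± 0.054.

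In the Vin lineage of CRTX, Avpr1b was 5.99, 5.89 and 5.98 in St-Vin, against 6.01 and 6.00 in NSt-Vin (-0.05 ± 0.058, adjusted p = 0.998), where 13.2% of probe sets do not overlap. In BLA, Ucn was 6.85, 6.82 and 6.95 in St-Con, against 6.81, 6.81 and 6.79 in NSt-Con (0.07 ± 0.061, adjusted p = 0.996), where 5.8% do not overlap. Also in BLA, Avpr1a was 5.96, 5.94 and 5.94 in St-Vin, against 5.99, 5.98 and 5.99 in NSt-Vin (-0.04 ± 0.048, adjusted p = 1.00), where 6.18% do not overlap. In CA1, Ucn was 6.69, 6.71 and 6.71 in St-Vin, against 6.73, 6.72 and 6.72 in NSt-Vin (-0.02 ± 0.059, adjusted p = 0.88), where 25.2% do not overlap and all St-Vin arrays were scanned on another day, so stress and scan day cannot be told apart. Avpr1b in CA1 had a larger stress difference in Vin, with overlapping groups: 6.34, 6.41 and 6.33 in St-Vin, against 6.15, 6.25 and 6.33 in NSt-Vin (0.12 ± 0.059, adjusted p = 0.306; 0.07 without the NSt-Vin pool at 6.15). It shares the scan days of that comparison. Each of the 4 differences without overlap is smaller than its SE or close to it. In the other stress comparisons 0 members separated, against 14.7% of probe sets in Con in CA1, 6.89% in Con in CA3 and 18% in Vin in CA3.

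Crhbp had the largest stress differences in size, in opposite directions by area. Averaged over lineage, it was 0.30 ± 0.150 higher in stressed CA1 (adjusted p = 0.331) and -0.19 ± 0.127 in stressed BLA (adjusted p = 0.996). In CA1 all St-Vin arrays were scanned on another day than the non-stressed arrays. Stress in Vin, which enters the CA1 average, and scan day cannot be told apart. Without the 2 choroid-rich CA1 arrays, both NSt-Con, the average in CA1 was 0.19 ± 0.156 and the difference in Con 0.07, against 0.29 with them. The F test across areas gave Crhbp an unadjusted p of 0.0439 for the average stress difference (adjusted p = 0.269), and called 0 of 6 members while it called 248 of 27342 probe sets. At an unadjusted p under 0.05 the same F test had 4806 of the 27342 probe sets. In CA3, stressed Vin pools had 7.53, 7.58 and 7.69, against 7.43, 7.29 and 7.61 in non-stressed Vin pools (0.16 ± 0.074, adjusted p = 0.368). Without the NSt-Vin pool at 7.29 this difference was 0.08, and without the one at 7.61 it was 0.24. In the same area stressed Con pools had 7.51, 7.56 and 7.44, against 7.49, 7.50 and 7.52 (0.00 ± 0.074). The interaction of lineage and stress passed for no member in any area, and the smallest unadjusted p was 0.16, for Crhbp in CA3 (0.16 ± 0.105, adjusted p = 0.785).

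**Figure D3:**
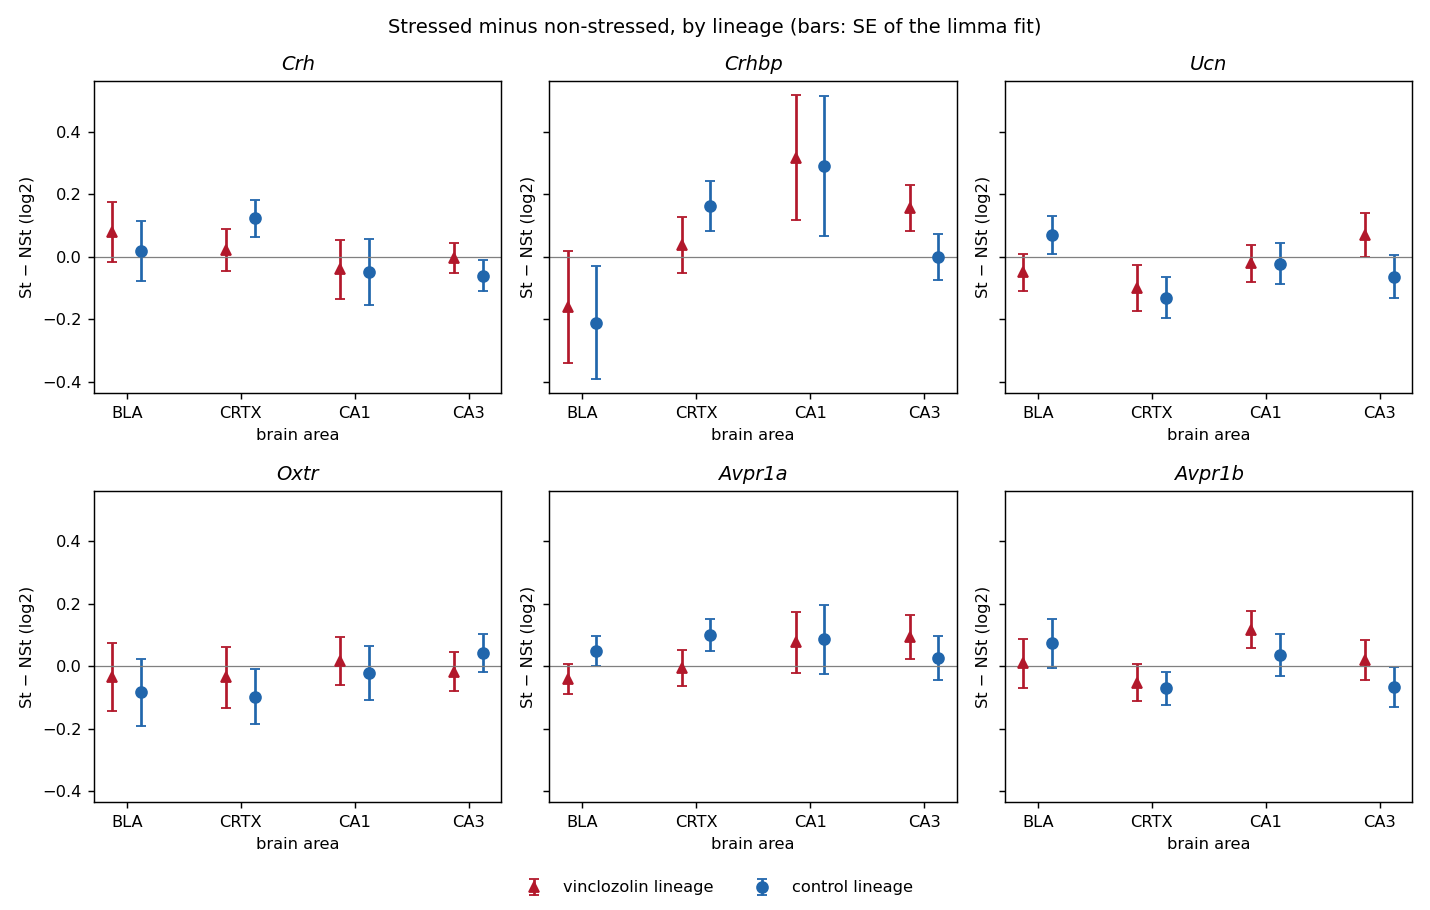
Stressed minus non-stressed log2 difference (vertical axis) of each gene in 4 areas (horizontal axis), in the vinclozolin lineage (triangles, left) and the control lineage (circles, right); bars are the SE of the limma fit. Crhbp has the widest bars, in BLA and CA1, and no difference passed an adjusted p of 0.05.

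The spread of Crhbp between pools was itself large. Its SD between replicates was 0.262 in BLA and 0.295 in CA1, above those of 96.3% and 97.1% of all probe sets, against 0.106 in CRTX and 0.0953 in CA3. In BLA it followed the dyad group. Dyad groups 1, 4 and 5 had Crhbp signals of 7.14 to 7.50 (median 7.33, 6 arrays), and dyad groups 2, 3 and 6 had 7.67 to 7.99 (median 7.71, 6 arrays). Markers of striatal medium spiny neurons, on 14 measured genes of 17 listed, were at 8.69 to 9.10 in the first set of dyad groups and at 7.07 to 7.71 in the second. Of the 18 marker lists, 7 did not overlap between these sets. Central and medial amygdala genes (7.65 to 7.98 against 7.05 to 7.37), pan-GABA genes (8.51 to 8.80 against 7.90 to 8.16), parvalbumin interneuron genes and CA2 genes were also higher in dyad groups 1, 4 and 5, and Vip and Cck interneuron and hypothalamic lists were higher in dyad groups 2, 3 and 6. Some genes, such as Tac1, stand on several of these lists. Crh lay on the opposite side, with 6.81 to 6.97 in dyad groups 1, 4 and 5 and 6.60 to 6.76 in dyad groups 2, 3 and 6, so neither gene overlapped between the sets. Ucn, Oxtr, Avpr1a and Avpr1b overlapped between them. The 2 sets were drawn from the striatal list of these same arrays. The share of all probe sets that separate between the 2 sets was not computed. The dyad groups fall into 2 clusters of striatal signal, so no pooled correlation is given; within the clusters Crhbp and the striatal list had r = -0.82 and -0.18 (6 arrays each), and Crh and the list -0.01 and 0.50. The part of any of these cell types in the BLA values of both genes was not tested, and in bulk punches fewer cells of a type and less RNA per cell cannot be told apart. The non-stressed set holds 1 dyad group with high striatal signal and the stressed set holds 2. Stressed and non-stressed BLA pools are therefore not balanced for the striatal list or for the other lists that separate. The part of this imbalance in the BLA stress differences of Crh and Crhbp was not tested.

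In CA1, Crhbp moved with markers of somatostatin interneurons, a cell type in which it is known to be expressed. Against the mean of 7 measured genes of that list, Crhbp itself left out, its Pearson r was 0.96 and Spearman rho 0.87 (11 arrays, pools of a dyad group sharing cages and punches). Without the 2 arrays farthest from the median of the list r was 0.93. The relation did not have 1 sign over the areas: r was 0.27 in CRTX (11 arrays) and -0.50 in CA3 (12 arrays), and in BLA, where arrays fall into clusters, the list was higher in the dyad groups with lower Crhbp, with ranges that overlap. Both pools of dyad group 3 were lowest, with Crhbp at 7.13 in NSt-Vin and 7.05 in NSt-Con and the list at 7.37 and 7.27. Over the same arrays Crhbp and the mean of 9 CA3 pyramidal cell markers had r = -0.90 and rho = -0.79. That CA3 list ranged from 7.68 to 8.49 in St-Vin and from 8.44 to 8.50 in St-Con, against 8.55 to 9.23 in NSt-Vin and 8.53 to 9.33 in NSt-Con, so it is below in both stressed groups where Crhbp averaged above. Its part in the CA1 stress difference was not tested. In CA3, Avpr1a and the leptomeninges list had r = 0.84 and rho = 0.71 (12 arrays), or r = 0.53 without the 2 farthest arrays. These are the descriptions retained from 432 relations of 6 genes with 18 lists in 4 areas.

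**Figure D4:**
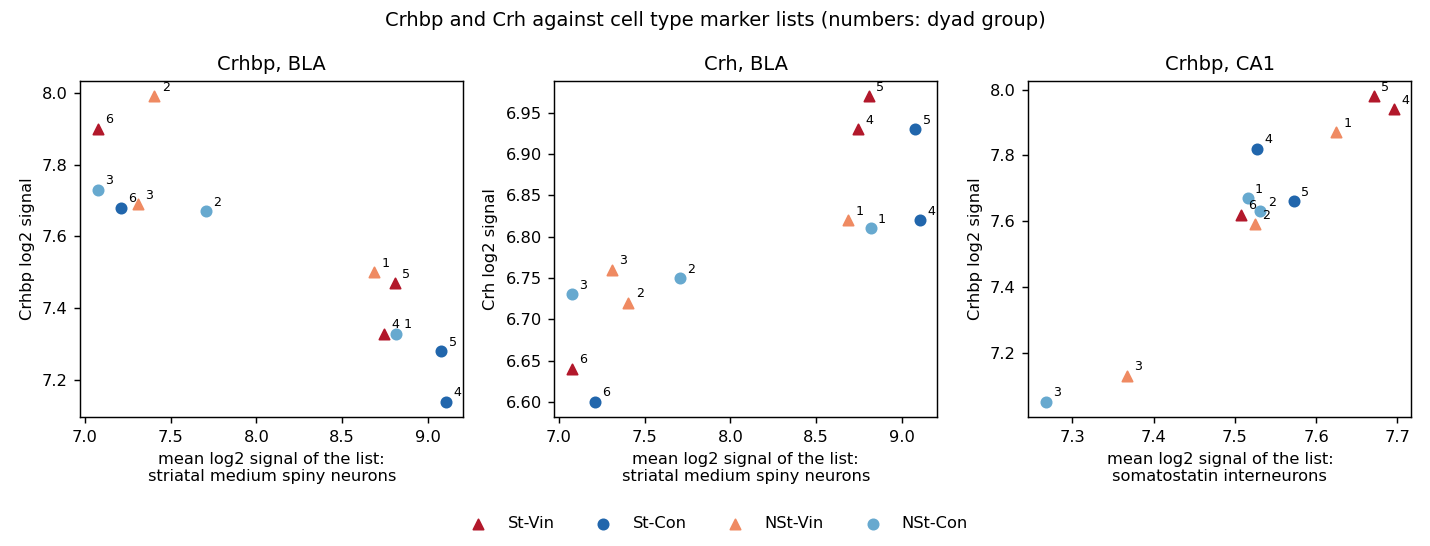
Log2 signal of Crhbp and Crh (vertical axes) against the mean log2 signal of a marker list (horizontal axes) in BLA and CA1, 1 point per array, numbered by dyad group. In BLA the arrays of dyad groups 1, 4 and 5 sit at the right, low for Crhbp and high for Crh, and in CA1 the 2 arrays of dyad group 3 sit lowest for Crhbp and for the somatostatin interneuron list.

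Genes of the wider pathways were described from 5 lists without the members. None of the 4 measured genes of CRH peptides and their processing, the 20 of CRH receptor signalling, the 4 of the oxytocin and vasopressin system, the 13 of oxytocin and vasopressin receptor signalling or the 18 of the stress axis and other stress neuropeptides passed the threshold in any lineage or stress comparison, within areas or in their mean. Between areas, counts are of genes past the threshold with 1 direction on all 4 scales. Of all probe sets, 53.7% did so for BLA minus CA1 and 31.6% for CA1 minus CA3. No count below is read as a result about its list. Of the 4 CRH peptide genes, 1 was higher and 2 lower in BLA than in CA1: Ucn2 (6.85 ± 0.075 in BLA and 6.61 ± 0.063 in CA1) was higher, and Ucn3 (6.56 ± 0.064 and 6.72 ± 0.034) and the prohormone convertase Pcsk2 (9.96 ± 0.242 and 10.54 ± 0.097) were lower (SD, n = 12 and 11). Of the 20 CRH receptor signalling genes, 5 were higher and 6 lower in BLA than in CA1, led by the adenylyl cyclases Adcy5 (9.96 ± 0.779 and 8.86 ± 0.107) and Adcy1 (9.82 ± 0.212 and 10.40 ± 0.361), and 0 were higher and 6 lower in CA1 than in CA3. Of the oxytocin and vasopressin system, 3 of 4 were lower in BLA than in CA1: Oxt (6.91 ± 0.077 and 7.65 ± 0.091), Avpr2 (6.42 ± 0.130 and 6.75 ± 0.135) and Lnpep, the peptidase that degrades oxytocin (9.48 ± 0.105 and 9.80 ± 0.050). In both areas Ucn2, Ucn3, Oxt and Avpr2 lay between the 5th and 95th percentiles of the olfactory and vomeronasal receptor probe sets. Whether their signal differences are differences in RNA was not tested. Of the 13 genes of oxytocin and vasopressin receptor signalling, 3 were higher and 4 lower in BLA than in CA1. Of the 18 stress neuropeptide genes, 9 were higher and 4 lower in BLA than in CA1. Penk (9.99 ± 1.25 and 7.60 ± 0.248) and Tac1 (8.36 ± 1.20 and 6.35 ± 0.215), the precursors of enkephalin and of substance P, were higher, and both belong to the striatal list that varied between BLA punches. Adcy5 also varied widely between BLA arrays, from 9.08 to 10.94, and its relation to the striatal list was not tested. Nr3c2, the mineralocorticoid receptor, was lower in BLA (8.21 ± 0.266 and 9.26 ± 0.373).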

How the data were processed

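Each array measured RNA pooled from 4 rats of 1 area, lineage and stress condition. Values were deposited as log2 signals of Affymetrix whole-transcript arrays, processed with Partek and RMA per the submitters' processing notes, with no version or genome build given in the sources used here. They were used as deposited. Probe sets were named from the platform annotation (15097 with 1 symbol, 323 with several, 11922 with none). The members and gene lists were chosen with earlier results of these data known. All 6 measured members were named in every area. Group differences were given by array where the unadjusted p was under 0.05 or groups did not overlap, list genes past the threshold up to 3 per direction, and the 3 most correlated genes.

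Group means were fitted over all probe sets with limma 3.58.1 (lmFit, eBayes; R 4.3.3), per area and on the mean of the 4 areas of the 10 pools measured in all. Areas were compared in 1 fit with the pool as a fixed block, and F tests across areas used it as a random block (statmod 1.5.0). Tests were two-sided, with Benjamini-Hochberg adjustment over 27342 probe sets and a threshold of 0.05; the fits were tested on simulated data. The number of arrays limits the precision. The replicates are pools of separate rats, and the error of every test is that among pools. The labels state that Vin and Con pools of a dyad group are cage mates. Deviations of such pairs correlated above 0.1 in 6 of 6 pairs in BLA, 3 of 5 in CRTX, 5 of 5 in CA1 and 5 of 6 in CA3, and paired fits carry this replicate block. The 2 arrays that equal the mean of the others of their group are no separate measurements and were left out, a choice made with earlier results known. Promoter sequences come from RefSeq (GRCr8). The alternatives were a filter on dim probe sets, normalization and centring, eBayes settings, the replicate block, scan day, 48 arrays, the choroid-rich arrays and each pool left out.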

Additional observations from a re-analysis of the deposited data

Results flagged for a closer look

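In 2 of 24 sets of dyad group differences, 1 set per gene and area, all dyad groups moved one way without stress and the opposite way with it. Each of these 2 sets holds only 5 dyad groups. The share of all probe sets that do the same was not computed. For Avpr1a in CRTX, Vin minus Con was -0.18, -0.01 and -0.08 in the stressed dyad groups, against 0.06 and 0.01 in the non-stressed ones, a difference of means of -0.125. The interaction term of the limma fit was -0.11 ± 0.078 (adjusted p = 0.908). The arrays of the non-stressed CRTX pair at 0.01 were scanned on different days. For Avpr1b in CA1, Vin minus Con was 0.04 and 0.03 in the stressed dyad groups, against -0.13, -0.03 and -0.02 in the non-stressed ones, a difference of means of 0.095. The interaction term was 0.08 ± 0.089 (adjusted p = 0.965). In both stressed CA1 pairs the Vin array was scanned on a later day than the Con array. Each non-stressed CA1 pair was scanned on a single day. The change of sign for Avpr1b thus coincides with this difference in scanning, whose part in it was not tested. Beyond these interaction terms, neither difference was tested. None of the 24 sets of dyad group differences held a value far from the others by Dixon's criterion.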

How the results depend on the processing

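The lineage and stress results kept their side of the threshold throughout: 0 members passed in any area, in the mean of the areas or in the F tests under any alternative run, over 3685 further tests with a smallest adjusted p of 0.146. The replicate block moved the Crhbp lineage difference in BLA to an adjusted p of 0.427 and changed no call. All members have 1 probe set, so other probe sets could not be tried. Between areas, all 13 differences that passed on the 4 scales kept their direction under every alternative. Fits of 1 group alone, with fewer arrays, called fewer members: 2 for BLA minus CRTX in St-Con, NSt-Vin and NSt-Con, 3 for BLA minus CA1 in NSt-Vin and NSt-Con, 2 for BLA minus CA3 in St-Vin, St-Con and NSt-Vin, 3 for CRTX minus CA1 in NSt-Con, and for CA1 minus CA3 3 in St-Vin, St-Con and NSt-Con and 2 in NSt-Vin. Quantile normalization called 3 for CA1 minus CA3, and receptor centring 3 there and 3 for CRTX minus CA1. Whole arrays stand higher or lower by area on the deposited scale. On the other 3 scales 50 differences changed sign, 45 of them with an adjusted p under 0.05 on the deposited or the other scale. The other 5 were all of Crhbp: after quantile normalization -0.19 for BLA minus CRTX, 0.0083 for BLA minus CA1 and 0.20 for CRTX minus CA1, and with receptor centring -0.18 for BLA minus CRTX and 0.17 for CRTX minus CA1. Of the 45, those with arrays centred on their median were BLA minus CRTX -0.10 for Crh, -0.27 for Crhbp, -0.039 for Oxtr, -0.25 for Avpr1a and -0.27 for Avpr1b, BLA minus CA3 0.12 for Crh, 0.15 for Ucn and 0.21 for Oxtr, CRTX minus CA1 0.22 for Crhbp and 0.11 for Ucn, CRTX minus CA3 0.22 for Crh, 0.58 for Crhbp, 0.14 for Ucn, 0.25 for Oxtr and 0.12 for Avpr1b, CA1 minus CA3 0.031 for Ucn, 0.012 for Avpr1a and 0.13 for Avpr1b. After quantile normalization the rest of them were BLA minus CRTX -0.12 for Crh, -0.0048 for Ucn, -0.21 for Avpr1a and -0.24 for Avpr1b, BLA minus CA3 0.079 for Crh, 0.11 for Ucn and 0.31 for Oxtr, CRTX minus CA1 0.11 for Ucn, CRTX minus CA3 0.20 for Crh, 0.56 for Crhbp, 0.12 for Ucn, 0.24 for Oxtr and 0.037 for Avpr1b, CA1 minus CA3 0.0017 for Ucn and 0.059 for Avpr1b. With arrays centred on the olfactory and vomeronasal receptor probe sets the rest of them were BLA minus CRTX -0.011 for Crh, -0.16 for Avpr1a and -0.18 for Avpr1b, BLA minus CA3 0.083 for Crh, 0.12 for Ucn and 0.18 for Oxtr, CRTX minus CA1 0.062 for Ucn, CRTX minus CA3 0.093 for Crh, 0.45 for Crhbp, 0.012 for Ucn and 0.12 for Oxtr, CA1 minus CA3 0.046 for Avpr1b. The low signals, RNA pools, 2 or 3 arrays a group, choroid plexus and striatal markers in some punches, and scan days that follow groups in CRTX and CA1 limit all comparisons.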
